A study of Mus musculus with 12 samples.

Results

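The collagen genes were taken as every gene symbol in the deposited count table made of Col, a number, the letter a and a number, which gave 44 of the 53735 symbols. RNA-seq libraries were made from mammary epithelial cells of mice sorted on CD24 and CD49f into luminal and basal populations, with 4 groups of 3 libraries. The groups were luminal cells of MMTVRANK mice, luminal cells of wild-type (WT) mice, basal cells of MMTVRANK mice and basal cells of WT mice. MMTVRANK names a transgene for Rank, the receptor encoded by Tnfrsf11a, under the mouse mammary tumour virus promoter, which is active in mammary epithelium. Strain, age, the number of animals behind a library and what a replicate number marks are not given in the sources used here, so p-values measure the spread between these libraries, which may be technical. The libraries held 12459547 to 15069578 counts.

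Collagens are secreted or membrane proteins whose chains wind round each other into a stiff helix. Fibrillar collagens form the cables of the stroma, network collagens form the sheet of the basement membrane, and FACITs (collagens associated with fibrils through interrupted helices) decorate fibrils or basement membranes. In the mammary gland the basal, largely myoepithelial, cells touch the basement membrane, luminal cells lie inside them, and fibroblasts outside the membrane are the usual source of type I and type III collagen.

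The populations were checked by markers and the transgene by Tnfrsf11a. The summed level of 10 basal keratin and smooth-muscle markers was 69.4 to 371 CPM (read counts scaled to the size of the library, by TMM) in MMTVRANK luminal libraries, 34.1 to 106 in WT luminal, 24772 to 27844 in MMTVRANK basal and 21630 to 23792 in WT basal libraries. The sum of 10 luminal markers was 7567 to 12926 CPM in MMTVRANK luminal, 15250 to 21272 in WT luminal, 297 to 409 in MMTVRANK basal and 548 to 559.6 in WT basal libraries, so that it was lower in MMTVRANK libraries of each population with no overlap. Groups follow the titles of the libraries. The cell subtype field gives the libraries labelled WT replicate 2 the opposite population to their titles, but their markers lay with the titles. The basal and luminal marker sums were 55.2 and 16254 CPM in the library titled luminal. They were 23792 and 548 CPM in the library titled basal. Tnfrsf11a had 319, 156 and 238 CPM in MMTVRANK luminal libraries, against 6.36, 90.8 and 9.91 in WT luminal libraries, and 415, 129 and 218 CPM in MMTVRANK basal libraries, against 73.7, 158 and 65.3 in WT basal libraries. The libraries labelled WT replicate 2 were thus the highest of their WT groups, and the basal one lay inside the MMTVRANK basal range. Counts of called collagen genes are given with and without them.

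Of the 44 collagen genes, 40 passed the filter on low counts. Of these, 32 reached the minimum of 0.728 CPM in at least 3 libraries of each population, 1 did so in luminal libraries alone (Col10a1) and 7 in basal libraries alone (Col2a1, Col4a3, Col6a4, Col6a6, Col13a1, Col24a1 and Col28a1). A gene that passed through 1 population was kept because of the population where it is high. Counts over the 40 or over a class, and such a gene's call between populations, thus describe the genes and are no evidence for the family. The 4 genes not tested were Col6a5, Col19a1, Col22a1 and Col26a1, with 75, 26, 32 and 19 counts over all 12 libraries.

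Reads were counted without strand and given to the gene they overlapped most, per the file headers, so reads from a stretch that genes share may stand under either gene: Col4a1 and Col4a2 overlap by 22 bp, Col9a3 shares 6.07% of its counted length with Tcfl5 and Col4a3 5.65% with an antisense gene.

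The promoters shown are those of Col4a1 and Col4a2, which encode the partner chains of the main basement membrane network and were the most abundant collagen mRNAs of basal cells, and of Col11a1 and Col25a1, which differed between genotypes in luminal cells. Each window runs from 250 bases before to 50 bases after a RefSeq start site (GRCm38.p6), with capitals at matches to CCAAT or GGGCGG on either strand. The Col4a1 window is chr8:11312777-11313076 on the minus strand and the Col4a2 window is chr8:11312555-11312854 on the plus strand. The Col11a1 window is chr3:114030290-114030589 and the Col25a1 window is chr3:130180595-130180894, both on the plus strand, and the Col25a1 start site lies inside the deposited span of that gene.
Col4a1: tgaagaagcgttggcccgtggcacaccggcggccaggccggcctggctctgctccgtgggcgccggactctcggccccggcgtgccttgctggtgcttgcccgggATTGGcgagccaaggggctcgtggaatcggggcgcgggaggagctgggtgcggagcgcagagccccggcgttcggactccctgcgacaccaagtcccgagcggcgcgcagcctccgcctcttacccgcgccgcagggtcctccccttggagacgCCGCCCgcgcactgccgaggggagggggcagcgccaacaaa
Col4a2: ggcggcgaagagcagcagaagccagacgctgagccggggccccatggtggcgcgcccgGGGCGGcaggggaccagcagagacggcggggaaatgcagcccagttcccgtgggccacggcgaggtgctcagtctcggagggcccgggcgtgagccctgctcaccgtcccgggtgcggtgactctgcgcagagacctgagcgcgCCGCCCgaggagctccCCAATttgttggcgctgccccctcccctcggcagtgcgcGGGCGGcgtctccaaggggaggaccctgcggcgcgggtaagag
Col11a1: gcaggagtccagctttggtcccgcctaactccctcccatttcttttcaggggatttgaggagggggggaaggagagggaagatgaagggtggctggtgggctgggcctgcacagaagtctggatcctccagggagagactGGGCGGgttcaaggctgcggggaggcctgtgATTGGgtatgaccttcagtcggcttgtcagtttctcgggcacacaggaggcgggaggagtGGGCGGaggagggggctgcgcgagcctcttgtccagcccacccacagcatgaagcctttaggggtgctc
Col25a1: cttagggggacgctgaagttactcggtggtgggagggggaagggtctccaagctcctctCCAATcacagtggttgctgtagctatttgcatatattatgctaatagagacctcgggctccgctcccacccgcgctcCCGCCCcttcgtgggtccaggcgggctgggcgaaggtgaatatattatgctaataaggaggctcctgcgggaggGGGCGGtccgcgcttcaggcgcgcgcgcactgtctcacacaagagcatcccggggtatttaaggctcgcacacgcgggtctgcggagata

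Col4a1 and Col4a2 face away from each other, with start sites 21 bp apart and windows that share 78 bp, in which 1 GGGCGG match is common to the 2 windows. Their GC content was 74.0% and 73.7%, against 62.3% for Col11a1 and 60.0% for Col25a1. Col4a6 and Col4a5, on chromosome X, are likewise divergent neighbours, with start sites 1343 bp apart. RefSeq windows were matched for 35 of the 44 genes (38 windows). GGGCGG, the letters of a GC box, stood on either strand in 23 of the 38 windows (60.5%) and in 35.7% of all 32851 windows of that length. CCAAT stood in 34.2% of the collagen windows and 37.4% of all, TATAAA in 13.2% and 13.6%, and the AP-1-like TGANTCA in 2.63% and 7.81%. These are letter matches on neighbouring and related genes, given as a description.

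Collagen transcripts made up 0.105% ± 0.0133 of counts in MMTVRANK luminal and 0.124% ± 0.0170 in WT luminal libraries, against 1.43% ± 0.0846 in MMTVRANK basal and 1.31% ± 0.191 in WT basal libraries (SD, n = 3 each). Without the libraries labelled WT replicate 2, the WT shares were 0.112% and 0.116% in luminal and 1.09% and 1.41% in basal libraries. The highest luminal library (0.143%, the library labelled WT luminal replicate 2) was far below the lowest basal one (1.09%, WT replicate 3). The pool was also differently made up. Set per kilobase of gene length, so that genes can be compared, Col8a1 led in every luminal library and Col4a1 in every basal library.

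**Figure D1:**
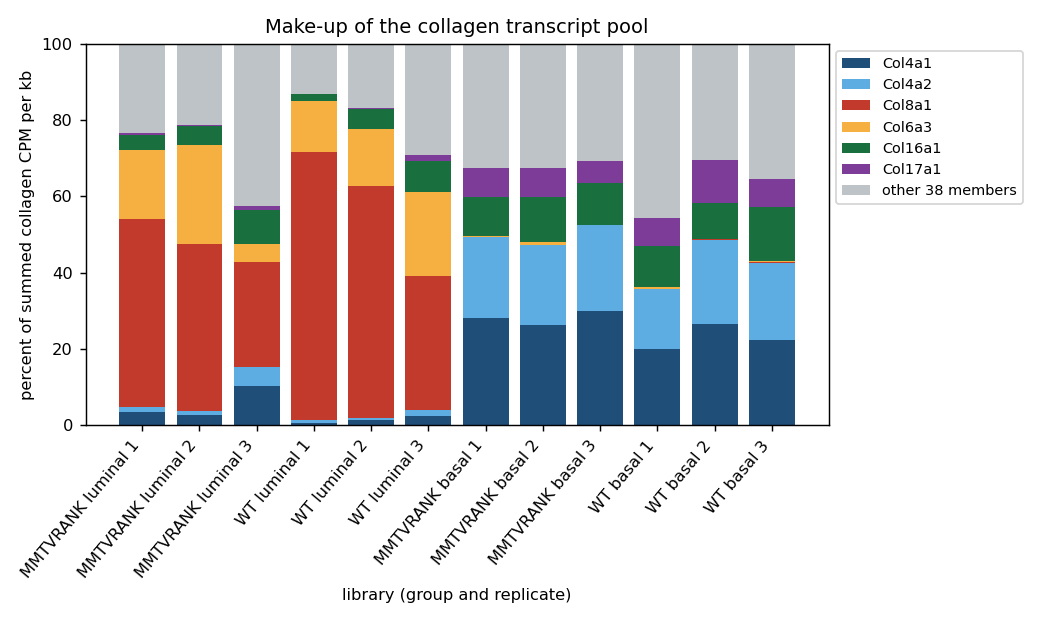
Stacked bars show, for each of the 12 libraries, the percentage of the summed collagen level (CPM per kilobase) held by 6 genes and by the other 38 members together. Of the 6 genes drawn alone, Col8a1 takes the largest share in the 6 luminal libraries, and the other 38 together exceed it in MMTVRANK luminal replicate 3, at 42.4%, while Col4a1 with Col4a2 takes 35.7% to 52.5% in the 6 basal libraries.

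Col8a1 encodes a short-chain network collagen best known from vessel walls and the membrane under the corneal endothelium. Its level averaged 53.3 ± 11.0 CPM per kilobase in MMTVRANK luminal and 102 ± 41.9 in WT luminal libraries (SD, n = 3 each). Col6a3, a chain of the type VI beaded filaments, came next with 21.4 ± 14.3 and 29.5 ± 5.38, followed by Col16a1, a FACIT, with 8.14 ± 4.24 and 8.67 ± 4.94 CPM per kilobase in MMTVRANK and WT luminal libraries. Col8a1 stood clear of Col6a3 beyond the SDs in each genotype. Col6a3 stood clear of Col16a1 in WT luminal libraries but not in MMTVRANK ones, and Col16a1 did not separate from the gene ranked under it, which was Col4a1 (7.63 CPM per kilobase) in MMTVRANK and Col4a5 (6.80) in WT.

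In basal libraries the order was Col4a1 (649.7 ± 57.9 CPM per kilobase in MMTVRANK, 451 ± 101.1 in WT), Col4a2 (500.0 ± 37.8 and 376 ± 79.8), Col16a1 (254 ± 29.7 and 218 ± 17.6) and Col17a1 (162 ± 24.5 and 171 ± 60.6), each over 3 libraries. Col17a1 encodes the transmembrane collagen of hemidesmosomes, which anchor epithelium to the basement membrane. In MMTVRANK basal libraries each of the 4 separated from the next beyond the SDs, while in WT basal libraries Col4a1 and Col4a2 did not, nor did Col16a1 and Col17a1. The ratio of Col4a1 to Col4a2 per kilobase lay between 1.22 and 3.05 in the 6 luminal libraries and between 1.11 and 1.33 in the 6 basal ones. The Col4a5 to Col4a6 ratio lay between 1.65 and 7.10 in luminal libraries and between 1.24 and 2.39 in basal libraries.

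**Figure D2:**
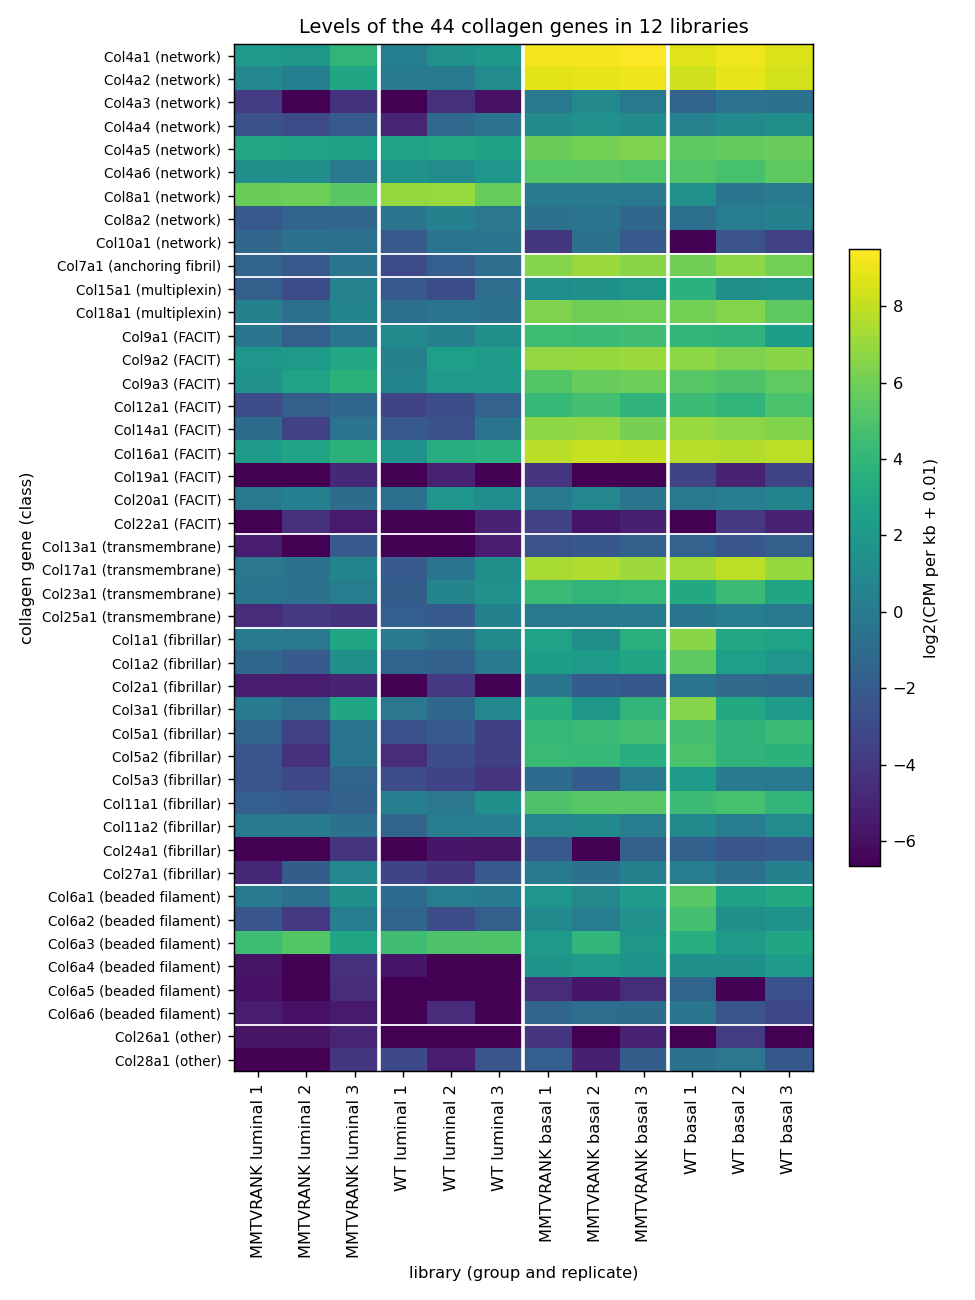
Each cell is the level of a collagen gene (rows, by class) in a library (columns, by group), as log2 of CPM per kilobase plus 0.01. Most rows are brighter in the 6 basal columns, Col8a1 and, but for MMTVRANK replicate 3, Col6a3 are brighter in the luminal columns, and the Col1a1, Col1a2, Col3a1, Col6a1 and Col6a2 rows are brightest in WT basal replicate 1.

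Luminal cells were then set against basal cells within each genotype, with edgeR's quasi-likelihood test over all genes and an adjusted p under 0.05 as the threshold. In MMTVRANK, 23 of the 40 tested collagen genes were lower and 1 was higher in luminal cells, where 17% of all 18236 tested genes were lower and 16.1% higher. In WT, 31 were lower and 2 were higher, against 20% and 18% of all genes. Every luminal library lay below every basal one for 27 of the 40 genes and above for 1 in MMTVRANK, where 26.8% and 27.7% of all genes did, and for 33 and 3 in WT, where 23.8% and 22.3% did. The median log2 fold change was -4.01 in MMTVRANK and -4.65 in WT, beside 0.05 and -0.07 over all tested genes. Among the 32 genes that reached the minimum in each population, 19 were lower and 1 higher in MMTVRANK, and 25 and 2 in WT. The shares of all genes given here are over every tested gene, so they are no like background for the 32. In bulk RNA, fewer cells that make a transcript and less of it per cell cannot be told apart. Without the libraries labelled WT replicate 2, 23 genes were lower and 1 higher in MMTVRANK, and 29 and 1 in WT. In that fit 30.7% of all genes passed in either direction in MMTVRANK and 28% in WT, against 33.2% and 38.1% with these libraries. With the populations of the libraries labelled WT replicate 2 taken from the cell subtype field instead, no collagen gene passed in either genotype. Of all genes, 3 passed in MMTVRANK and 0 in WT. That setting mixes luminal and basal libraries by their markers, so it cannot show how firm the calls are.

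**Figure D3:**
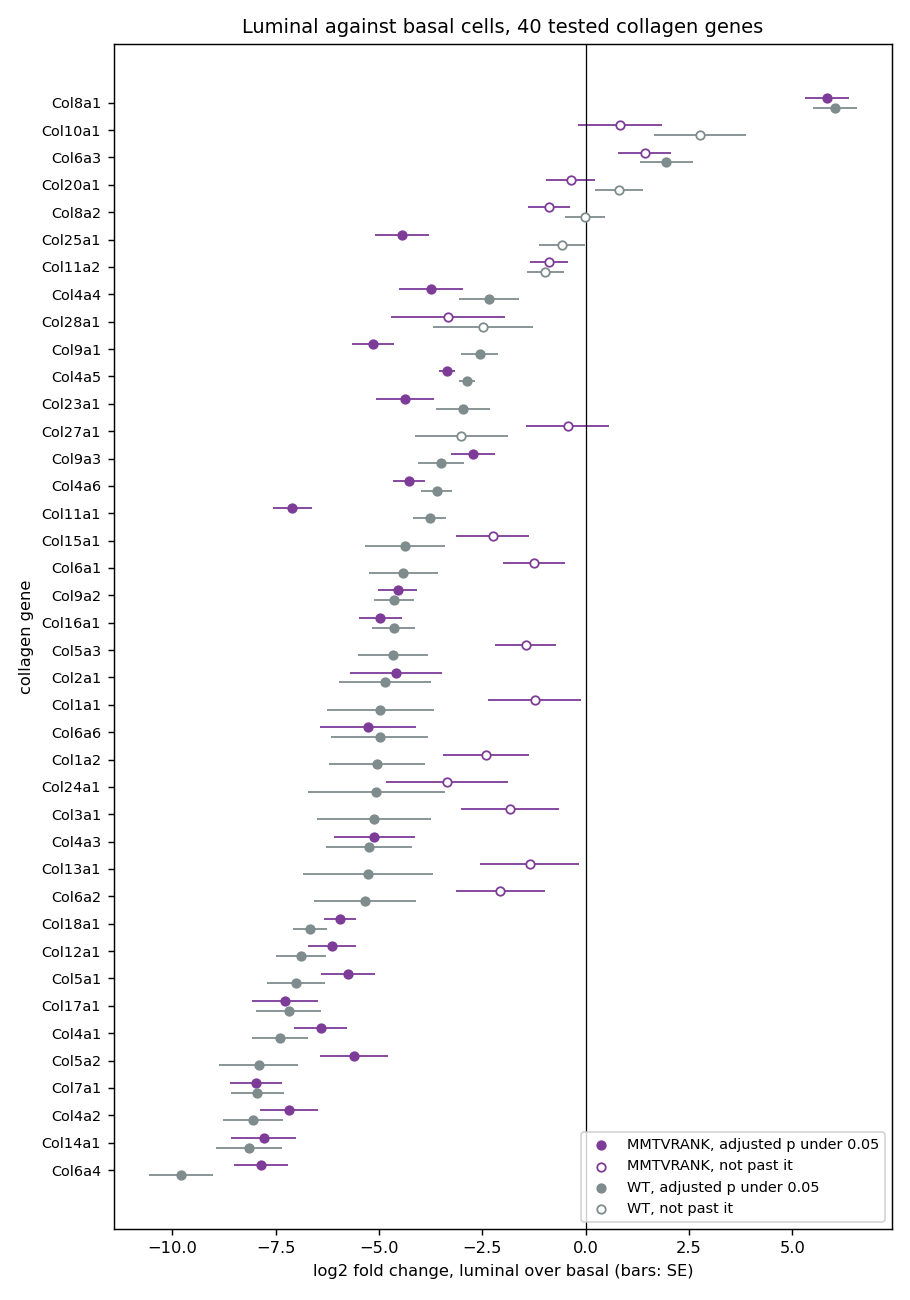
Points give the log2 fold change of luminal over basal cells for the 40 tested collagen genes, in MMTVRANK (purple) and WT (grey), with SE bars, filled where the adjusted p was under 0.05. Col8a1 stands at 5.84 and 6.04 on the right, and most other points lie left of 0.

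The basement membrane collagens fell in each genotype. Of the 9 network genes, 6 were lower in luminal cells of each genotype, namely the 6 chains of type IV collagen. Of these, Col4a3 was kept by the filter through basal libraries alone, which favoured its call. Col4a1 had 30.2, 28.1 and 113 CPM in MMTVRANK luminal libraries, against 4529, 4678 and 5341 in MMTVRANK basal libraries. Its WT values were 9.35, 21.5 and 28.6 CPM in luminal libraries, against 3090, 4221 and 2790 in basal libraries. The groups were far apart, and MMTVRANK replicate 3 was the highest of the 6 luminal libraries. The log2 fold change was -6.41 (SE 0.65, n = 3 per group, adjusted p = 2.36e-05) in MMTVRANK and -7.41 (SE 0.68, adjusted p = 1.27e-05) in WT. Col4a2 had 12.4, 8.18 and 48.1 CPM in MMTVRANK luminal, 6.81, 6.95 and 14.4 in WT luminal, 3055, 3318 and 3555 in MMTVRANK basal, and 2139, 3094 and 2225 in WT basal libraries. It followed Col4a1, with log2 fold changes of -7.17 (SE 0.70, adjusted p = 2.08e-05) in MMTVRANK and -8.04 (SE 0.73, adjusted p = 1.33e-05) in WT by the same edgeR test.

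In WT the smallest falls within type IV were those of Col4a5 and Col4a4, chains of the networks best known from kidney. Col4a5 had 52.1, 45.1 and 40.7 CPM in MMTVRANK luminal libraries, against 392, 457 and 558 in MMTVRANK basal libraries. WT luminal libraries had 44.2, 53.1 and 39.8 CPM, against 303, 325 and 377 in basal libraries. It fell by 3.35 (SE 0.19) in MMTVRANK and by 2.87 (SE 0.19) in WT on the log2 scale, with edgeR adjusted p of 2.4e-07 and 6.36e-07. Its luminal level was 9.80% of the basal one in MMTVRANK and 13.6% in WT, where the summed basal markers stood at 0.700% and 0.288%. Col4a4 had 1.57, 1.34 and 2.46 CPM in MMTVRANK luminal, 0.225, 4.68 and 7.31 in WT luminal, 21.4, 29.8 and 21.5 in MMTVRANK basal, and 15.2, 20.96 and 26.1 in WT basal libraries, so that the WT luminal libraries spread widely while all lay below the basal ones. It fell by 3.75 (SE 0.78, adjusted p = 0.00323) in MMTVRANK and by 2.34 (SE 0.73, adjusted p = 0.0253) in WT by edgeR's test.

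Other collagens of the epithelial anchor also fell. Col7a1, which encodes the anchoring fibrils under the basement membrane, had 3.54, 2.24 and 7.498 CPM in MMTVRANK luminal libraries, against 972, 1379 and 992 in MMTVRANK basal libraries. In WT it had 1.27, 2.77 and 5.72 CPM in luminal libraries, against 660.0, 1080 and 690.0 in basal libraries. It fell by 7.97 (SE 0.63) in MMTVRANK and by 7.94 (SE 0.63) in WT on the log2 scale, with edgeR adjusted p of 4.52e-06 and 5.27e-06. Its luminal level was 0.397% of the basal one in MMTVRANK and 0.402% in WT, beside 0.700% and 0.288% for the basal markers, and the part of residual basal cells in these low luminal levels was not tested. Col17a1 had 4.77, 3.71 and 9.67 CPM in MMTVRANK luminal, 1.35, 4.40 and 14.4 in WT luminal, 938, 1072 and 789 in MMTVRANK basal, and 879, 1379 and 707 in WT basal libraries. No luminal library came near a basal one, and Col17a1 fell by 7.26 (SE 0.80, adjusted p = 5.03e-05) in MMTVRANK and by 7.19 (SE 0.80, adjusted p = 5.05e-05) in WT by edgeR's test.

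Among the 4 transmembrane genes, Col17a1 and Col23a1 fell in each genotype, with Col25a1 in MMTVRANK and Col13a1 in WT. Col23a1 had 4.42, 3.90 and 6.39 CPM in MMTVRANK luminal libraries, against 119, 87.8 and 97.1 in MMTVRANK basal libraries. Its WT values were 1.497, 9.08 and 16.4 CPM in luminal libraries, against 51.0, 119 and 43.0 in basal libraries. The groups did not overlap in either genotype, and it fell by 4.36 (SE 0.70, adjusted p = 0.000709) in MMTVRANK and by 2.97 (SE 0.66, adjusted p = 0.00462) in WT by edgeR's test. Of the 2 multiplexins (Col15a1 and Col18a1, collagens of basement membrane zones) 1 fell in MMTVRANK and 2 in WT.

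Of the 9 FACIT genes 7 were tested, and 6 fell in each genotype. The largest fall among them was that of Col14a1, a fibril-bound collagen, which had 3.61, 0.575 and 5.16 CPM in MMTVRANK luminal, 1.497, 1.06 and 5.15 in WT luminal, 737, 837 and 497 in MMTVRANK basal, and 885, 724 and 613 in WT basal libraries. Its log2 fold change was -7.78 (SE 0.79, adjusted p = 2.82e-05) in MMTVRANK and -8.15 (SE 0.80, adjusted p = 2.42e-05) in WT by edgeR's test. Col16a1 had 32.0, 45.8 and 87.0 CPM in MMTVRANK luminal, 20.5, 72.4 and 82.7 in WT luminal, 1501, 1897 and 1751 in MMTVRANK basal, and 1468, 1349 and 1587 in WT basal libraries. It fell by 4.96 (SE 0.53) in MMTVRANK and by 4.65 (SE 0.52) in WT, and still ranked next to Col8a1 and Col6a3 among luminal collagens. Col9a1, Col9a2 and Col9a3, which together build type IX collagen, the FACIT of cartilage, all fell in each genotype. Col9a2 had 10.6, 13.7 and 25.1 CPM in MMTVRANK luminal libraries, against 362, 381 and 413 in MMTVRANK basal libraries. WT luminal libraries had 4.27, 16.7 and 15.1 CPM, against 332, 259 and 310 in basal libraries. It fell by 4.55 (SE 0.48) in MMTVRANK and by 4.64 (SE 0.48) in WT. Col9a3 had 10.8, 25.1 and 51.4 CPM in MMTVRANK luminal, 6.14, 15.4 and 18.6 in WT luminal, 138, 205 and 236 in MMTVRANK basal, and 153, 121 and 183 in WT basal libraries. Its groups did not overlap in either genotype, and it fell by 2.73 (SE 0.54, adjusted p = 0.00255) in MMTVRANK and by 3.51 (SE 0.56, adjusted p = 0.000599) in WT by edgeR's test. Col20a1 was the FACIT gene that did not pass, at -0.36 (SE 0.59) in MMTVRANK and 0.81 (SE 0.59) in WT.

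Col6a4, which belongs to a later branch of the type VI chains, had 0.0681, 0 and 0.293 CPM in MMTVRANK luminal libraries and 28.3, 37.1 and 27.9 in MMTVRANK basal libraries. WT luminal libraries had 0.0748, 0 and 0 CPM, against 23.04, 23.5 and 39.0 in basal libraries, which is 1 count in the 3 luminal libraries together and 1080 counts in the 3 basal ones. The basal to luminal ratio was 1212, with a 95% counting interval of 217 to 47904 that covers counting error only. In MMTVRANK it had 6 counts in luminal and 1170 in basal libraries. Col13a1 and Col24a1 also rested on few luminal counts in WT, with 1 and 2 counts in luminal libraries against 46 and 70 in basal libraries, and basal to luminal ratios of 51.6 (interval 8.81 to 2082) and 39.3 (interval 10.5 to 331).

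Col8a1 was higher in luminal cells of each genotype, and Col6a3 passed in WT in the main fit but not under many alternatives. Col8a1 had 303, 306 and 208 CPM in MMTVRANK luminal libraries, against 4.92, 4.89 and 4.47 in MMTVRANK basal libraries. In WT it had 633, 653 and 273 CPM in luminal libraries, against 14.4, 4.03 and 5.31 in basal libraries. Every luminal library was above every basal one. The log2 fold change was 5.84 (SE 0.53, n = 3 per group, adjusted p = 1.15e-05) in MMTVRANK and 6.04 (SE 0.53, adjusted p = 9.69e-06) in WT by edgeR's test. Its partner gene Col8a2 was low in each population, with 1.02 to 6.10 CPM in luminal libraries, and 2.95, 3.46 and 1.88 CPM in MMTVRANK basal and 2.63, 4.90 and 5.90 in WT basal libraries, and did not pass in either genotype. Per kilobase, Col8a1 exceeded Col8a2 by 65.0 to 261 times in luminal libraries, while the ratio lay between 0.724 and 4.81 in basal libraries.

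Col6a3 had 261, 425 and 83.7 CPM in MMTVRANK luminal libraries, against 52.9, 188 and 45.1 in MMTVRANK basal libraries. Its WT values were 279, 380 and 399 CPM in luminal libraries, against 133, 51.9 and 88.3 in basal libraries. The WT groups did not overlap, and in MMTVRANK luminal replicate 3 lay below basal replicate 2. The log2 fold change was 1.43 (SE 0.64, adjusted p = 0.113) in MMTVRANK, which did not pass, and 1.95 (SE 0.65, adjusted p = 0.0351) in WT, which passed (1.08e-16 to 0.963 over the alternatives). The WT change stayed positive under every alternative run (0.28 to 2.34), but it missed the threshold without any 1 of the 3 WT luminal libraries, without WT basal replicate 2 or 3, without MMTVRANK luminal replicate 1, with the cell subtype field, and without the libraries labelled WT replicate 2 (1.62, SE 0.80, adjusted p = 0.164). The difference between these effects did not pass (-0.52, SE 0.89, adjusted p = 0.95).

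The type VI chains Col6a1 and Col6a2, which assemble with Col6a3, did not share its pattern. Col6a1 had 4.42, 2.56 and 11.7 CPM in MMTVRANK luminal, 2.10, 4.82 and 4.32 in WT luminal, 15.3, 8.43 and 20.8 in MMTVRANK basal, and 176, 26.8 and 38.4 in WT basal libraries. Col6a2 had 1.57, 0.448 and 9.72 CPM in MMTVRANK luminal, 3.14, 1.06 and 2.35 in WT luminal, 16.7, 9.27 and 23.6 in MMTVRANK basal, and 221, 20.6 and 24.6 in WT basal libraries. WT basal replicate 1 was far above every other library for each. Per kilobase, Col6a3 exceeded Col6a1 by 2.63 to 60.8 times in the 6 luminal libraries, while the ratio lay between 0.278 and 8.15 in the 6 basal libraries. The lowest luminal ratio was that of MMTVRANK replicate 3 and the highest basal one that of MMTVRANK replicate 2.

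The fibrillar collagens were less uniform. Of the 11 fibrillar genes, 4 were lower in luminal cells in MMTVRANK and 9 in WT. Those that passed in each genotype were Col2a1, Col5a1, Col5a2 and Col11a1. Of these, Col2a1 was kept by the filter through basal libraries alone, which favoured its call. Col5a2, a chain of type V collagen, which starts fibrils, had 1.77, 0.384 and 7.44 CPM in MMTVRANK luminal libraries, against 190, 175 and 109 in MMTVRANK basal libraries. WT luminal libraries had 0.299, 1.28 and 0.699 CPM, against 293, 137 and 125 in basal libraries. It fell by 5.61 (SE 0.83) in MMTVRANK and by 7.91 (SE 0.95) in WT on the log2 scale, with edgeR adjusted p of 0.000387 and 9.27e-05.

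Over all classes, 22 genes were lower in luminal cells of each genotype, 1 in MMTVRANK alone (Col25a1) and 9 in WT alone. The 9 were Col1a1, Col1a2, Col3a1, Col5a3, Col6a1, Col6a2, Col13a1, Col15a1 and Col24a1. None of the 40 tested genes passed for the difference between the genotypes' effects, so these lists do not show that the genotypes differ. With the replicate number as a block, Col15a1 also passed in MMTVRANK (-2.71, adjusted p = 0.0297, 3.14e-08 to 0.298 over the alternatives), and in WT Col27a1, a fibrillar gene (-3.32, adjusted p = 0.0165, 1.58e-08 to 0.94 over the alternatives), and Col10a1, a network gene of growth-plate cartilage that was higher in luminal cells (3.03, adjusted p = 0.0232, the lowest of its alternatives, which reached 0.96), passed by edgeR's test. The filter kept Col10a1 through luminal libraries alone, and Col13a1 and Col24a1, among the 9, through basal libraries alone. The filter thus favoured the direction of their calls, which are no evidence. Among the 9, Col5a3, a minor type V chain, had 1.16, 0.703 and 2.28 CPM in MMTVRANK luminal, 0.898, 0.568 and 0.318 in WT luminal, 3.25, 1.69 and 6.50 in MMTVRANK basal, and 31.8, 7.20 and 6.25 in WT basal libraries. Col1a1 and Col3a1 are described here after their values were seen. Col1a1, the main chain of type I collagen, had 6.13, 5.69 and 46.1 CPM in MMTVRANK luminal, 5.61, 4.04 and 13.7 in WT luminal, 42.5, 16.2 and 78.0 in MMTVRANK basal, and 638, 53.7 and 43.4 in WT basal libraries. Col3a1, the chain of type III collagen, had 9.26, 5.56 and 69.0 CPM in MMTVRANK luminal, 8.31, 4.26 and 17.7 in WT luminal, 115, 36.2 and 148 in MMTVRANK basal, and 926, 85.7 and 46.3 in WT basal libraries. WT basal replicate 1 stood apart from the other 5 basal libraries, and MMTVRANK replicate 3 from the other 5 luminal libraries.

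**Figure D4:**
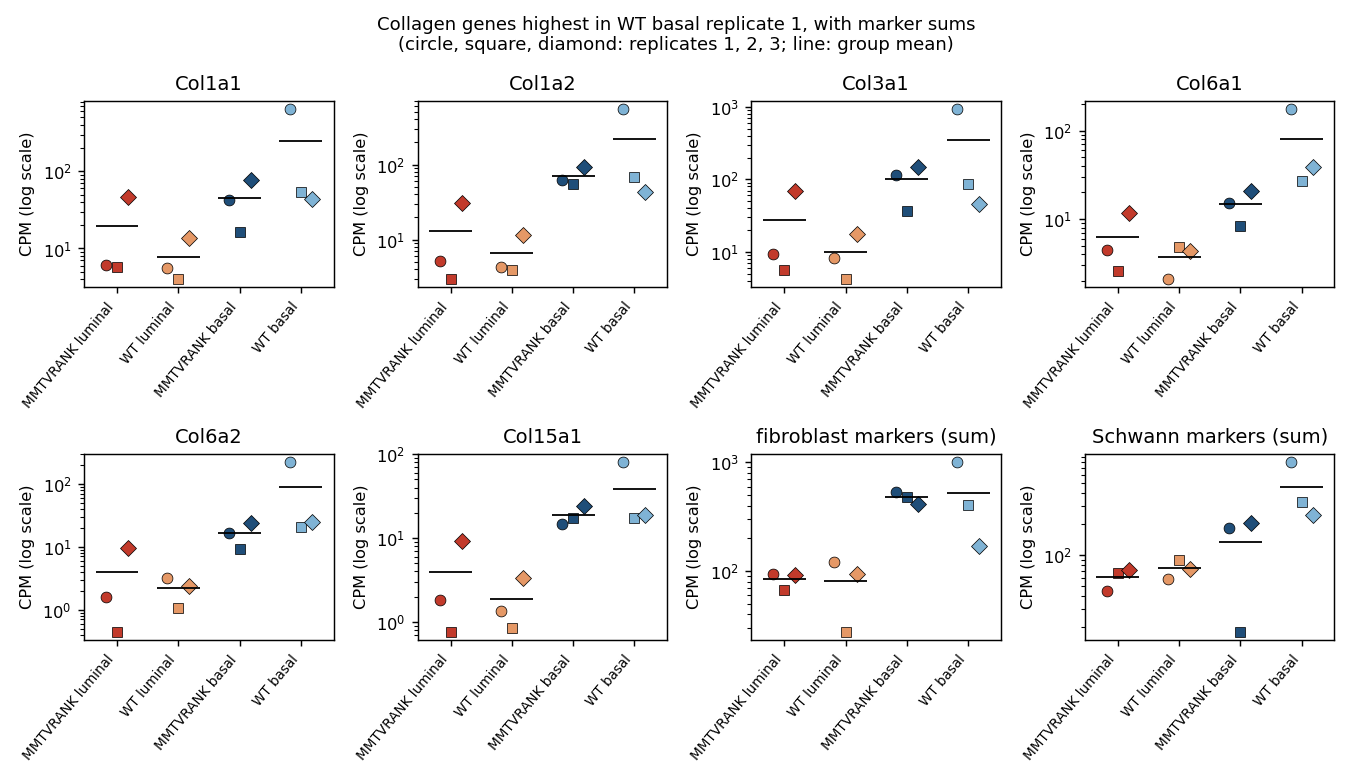
Points are CPM on a log scale in each library for 6 collagen genes and for the summed fibroblast and Schwann cell markers, by group, with lines at the group means. WT basal replicate 1 is the highest library in all 8 panels, while MMTVRANK luminal replicate 3 is the highest luminal library for the 6 collagen genes but not for the fibroblast or Schwann sum.

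In WT basal replicate 1, 16 of the 44 collagen genes had their highest basal level, with Col1a1 8.18 times, Col3a1 6.24 times and Col6a2 8.99 times the next basal library. The same library had the highest basal level of 10 of 12 fibroblast markers and 6 of 6 Schwann cell markers. The fibroblast sum was 1007 CPM in it and 171 to 533 in the other basal libraries, and the Schwann sum 803 against 18.04 to 325. It also led the basal libraries for 7 of 9 pericyte markers (sum 251, against 88.8 to 137) and 5 of 10 luminal markers (559.6 against 297 to 552). Over all groups the fibroblast sum was 67.0 to 94.0 CPM in MMTVRANK luminal, 27.7 to 120 in WT luminal, 412 to 533 in MMTVRANK basal and 171 to 1007 in WT basal libraries, and the marker Tcf21 had no count in any group but MMTVRANK basal. In MMTVRANK luminal replicate 3, 25 of the 44 collagen genes had their highest luminal level. It also led the luminal libraries for 11 of 12 leukocyte markers (sum 919 CPM, against 5.51 to 38.2), 8 of 10 basal markers (371 against 34.1 to 106) 6 of 10 endothelial markers (34.5 against 8.65 to 25.9), 6 of 9 pericyte markers (188 against 204 to 269, the lowest luminal sum) and 4 of 12 fibroblast markers (92.8 against 27.7 to 120). Its luminal marker sum was the lowest of the luminal libraries, at 7567 CPM against 11679 to 21272. The part of these cells in the collagen values was not tested. Some of the highest levels were near ties. Col14a1 was at 1.06 times the next basal library in WT basal replicate 1. It was at 1.00 times the next luminal library in MMTVRANK luminal replicate 3. The share of all genes with their highest level in each of these libraries was not counted. The counts of 16 and 25 thus describe the libraries and are no result about collagens.

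Leaving out these libraries changed the lists. Without WT basal replicate 1, the log2 fold change of Col1a1 in WT was -2.62 (SE 0.96, adjusted p = 0.0597), against -4.97 (SE 1.30, adjusted p = 0.0116) with it (1.15e-70 to 0.94 over the alternatives), and 6 of the 9 genes passed in WT. Without MMTVRANK luminal replicate 3, 5 of the 9 passed in MMTVRANK, where none had passed. With the 2 libraries left out together, 8 of the 9 passed in MMTVRANK and 9 in WT, and 31 collagen genes were lower in luminal cells of each genotype, with Col25a1 and Col28a1 in MMTVRANK alone and Col5a3 in WT alone. The log2 fold change of Col1a1 was then -2.94 (SE 0.71, adjusted p = 0.0117) in MMTVRANK, against -1.24 (SE 1.12, adjusted p = 0.441) with them, and -2.62 (SE 0.63, adjusted p = 0.0103) in WT. This pair of omissions was chosen after seeing the data. Of all genes, 33.8% passed in either direction in WT without WT basal replicate 1, and 28.2% in MMTVRANK without MMTVRANK luminal replicate 3. With the 2 libraries left out together, 30% passed in MMTVRANK and 34.1% in WT.

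MMTVRANK was next compared with WT within each population. In luminal cells 2 of the 40 tested collagen genes fell and none rose, where 0.159% of all tested genes fell and 0.0932% rose. The 2 were Col11a1 and Col25a1. Col11a1, a fibrillar chain best known from cartilage, had 3.47, 2.88 and 3.87 CPM in MMTVRANK luminal libraries, against 14.9, 10.5 and 34.4 in WT luminal libraries. In basal cells it had 409, 505 and 490 CPM in MMTVRANK libraries, against 266, 356 and 200 in WT libraries. Every MMTVRANK luminal library was below every WT luminal one, while every MMTVRANK basal library was above every WT basal one. The log2 fold change in luminal cells was -2.55 (SE 0.40, n = 3 per group, adjusted p = 0.0387 by edgeR's quasi-likelihood test, 3.1e-22 to 0.715 over the alternatives), and in basal cells 0.77 (SE 0.35, adjusted p = 0.901).

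Col25a1, a transmembrane collagen known from neurons and muscle innervation, had 0.408, 0.703 and 0.527 CPM in MMTVRANK luminal libraries, against 3.59, 3.05 and 17.4 in WT luminal libraries. In basal cells it had 11.4, 11.6 and 13.1 CPM in MMTVRANK libraries, against 9.90, 14.2 and 11.9 in WT libraries. The luminal groups did not overlap, the basal groups did, and WT luminal replicate 3 lay above all basal libraries. The log2 fold change was -3.85 (SE 0.65, n = 3 per group, adjusted p = 0.0421 by edgeR's test, 2.91e-10 to 0.212 over the alternatives) in luminal cells and 0.01 (SE 0.55, adjusted p = 1) in basal cells. Luminal Col25a1 stood at 4.54% of the basal level in MMTVRANK and 66.8% in WT, where it was 27.7% without WT luminal replicate 3.

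**Figure D5:**
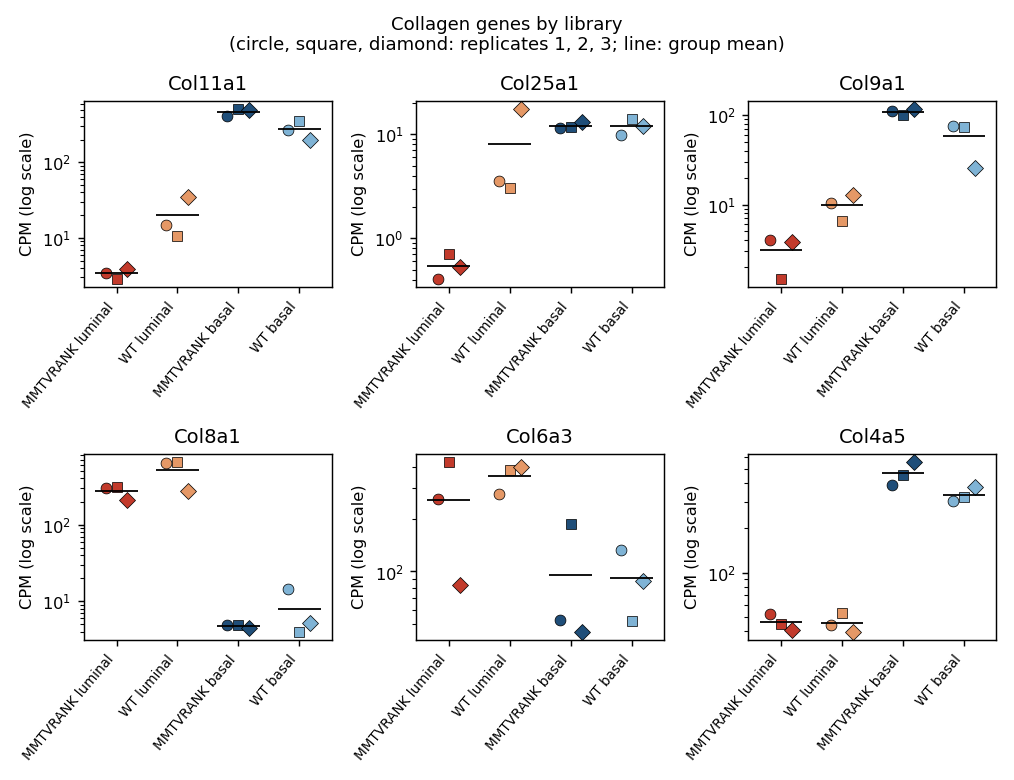
Points are CPM on a log scale in each library for 6 collagen genes, by group, with lines at the group means. For Col11a1, Col25a1 and Col9a1 all 3 MMTVRANK luminal libraries lie below all 3 WT luminal libraries, and Col8a1 and Col6a3 are higher in luminal than basal groups on average.

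These calls were near the threshold. Without any 1 of the 3 MMTVRANK luminal or 3 MMTVRANK basal libraries, or without WT basal replicate 1, neither gene passed (adjusted p 0.0552 to 0.116), and Col11a1 also missed it without WT luminal replicate 1 (0.0615). Both directions held under every alternative run. Of all genes, 4, 3 and 5 passed without MMTVRANK basal replicate 1, 2 or 3, where the changes stayed at -2.55 for Col11a1 and -3.85 for Col25a1. Without MMTVRANK luminal replicate 1, 2 or 3, 65, 47 and 11 passed. Without WT basal replicate 1 there were 20 and without WT luminal replicate 1 there were 7, against 46 in the main fit. Without WT luminal replicate 3, the highest library for each gene, the changes were -1.95 (SE 0.26, adjusted p = 0.036) for Col11a1 and -2.63 (SE 0.39, adjusted p = 0.0367) for Col25a1. Without the libraries labelled WT replicate 2 they were -2.85 (adjusted p = 0.00973) and -4.24 (adjusted p = 0.0214). MMTVRANK luminal replicate 3, which stood apart in leukocyte and basal markers, had 3.87 CPM of Col11a1 and 0.527 of Col25a1, each below the lowest WT luminal library. Luminal markers, which were lower in every MMTVRANK luminal library than in every WT one by their sum, had a median log2 fold change of -0.58, with 2 of 10 positive and none called (lowest adjusted p = 0.253 by edgeR). Basal markers had a median of 1.16, with 10 of 10 positive and none called (lowest adjusted p = 0.213). The part of cell makeup in the genotype results was not tested.

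In all, 4 collagen genes had every MMTVRANK luminal library below every WT one, where 6.82% of all genes did, and none had every library above, where 10.1% did. Beside Col11a1 and Col25a1 these were Col9a1 and Col8a2. Col9a1 had 4.02, 1.47 and 3.81 CPM in MMTVRANK luminal libraries, against 10.3, 6.53 and 13.0 in WT luminal libraries. In basal cells it had 113, 101.2 and 117 CPM in MMTVRANK libraries, against 76.6, 74.3 and 25.4 in WT libraries. Its log2 fold change in luminal cells was -1.68 (SE 0.45, adjusted p = 0.148, 1.05e-07 to 0.715 over the alternatives). Col8a2 had 1.02, 1.66 and 1.76 CPM in MMTVRANK luminal libraries, against 3.52, 6.10 and 3.68 in WT luminal libraries, with a change of -1.58 (SE 0.51, adjusted p = 0.207, 0.0215 to 0.715 over the alternatives). Neither passed in edgeR's test, and DESeq2, which called 800 of all genes (4.39%), called these 2 as well as Col11a1 and Col25a1, while limma-voom called no collagen gene and 29 of all genes.

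The other 2 of the 6 genes with the smallest luminal p-values were higher in MMTVRANK in the fit. Col4a1 was at 1.52 (SE 0.53, adjusted p = 0.252) and its luminal groups overlapped. Col13a1, a transmembrane collagen, had 1, 0 and 19 counts in MMTVRANK luminal libraries, against 0, 0 and 1 in WT luminal libraries (adjusted p = 0.36 by edgeR's test). The ratio was 18.2, with a 95% counting interval of 2.92 to 755 that covers counting error only, not the spread between libraries. In basal cells Col13a1 had 10, 11 and 18 counts in MMTVRANK libraries, against 19, 12 and 15 in WT libraries. MMTVRANK luminal replicate 3 was the highest luminal library for Col4a1 and for Col13a1. The median log2 fold change of the 40 genes in luminal cells was 0.44, beside 0.03 over all genes, and -0.22 without MMTVRANK luminal replicate 3. At an unadjusted p under 0.05 there were 10 of 40 collagen genes, against 12% of all genes. Col8a1, the leading luminal collagen, was at -0.93 (SE 0.42, adjusted p = 0.419), and its luminal groups overlapped.

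Without the libraries labelled WT replicate 2, edgeR's test called Col11a1 and Col25a1 in luminal cells, with 81 of all genes, and no collagen gene in basal cells, with 4 of all genes.

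In basal cells no collagen gene passed in edgeR's test, where 0.00548% of all genes fell and none rose. At an unadjusted p under 0.05 there were 4 of 40, against 5.41% of all genes, and DESeq2 and limma-voom called 0. The 4 were Col6a1 at -2.44 (SE 0.76, adjusted p = 0.711), Col6a2 at -2.43 (SE 1.06, adjusted p = 0.901), Col5a3 at -1.98 (SE 0.73, adjusted p = 0.83) and Col4a5 at 0.48 (SE 0.17, adjusted p = 0.805). Col6a1, Col6a2 and Col5a3 had their highest level in WT basal replicate 1. In Col4a1, Col4a3, Col4a5, Col9a1, Col9a2 and Col11a1 every MMTVRANK basal library was above every WT one, which is 6 of 40 genes against 6.6% of all, and in Col6a1 every one was below, against 4.52% of all. Col4a1 was at 0.53 (SE 0.51, adjusted p = 1).

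The difference between the genotype effects in luminal and basal cells passed in none of the 40 genes, where 0.00548% of all genes passed, and 6 of 40 had an unadjusted p under 0.05, against 7.73% of all. It was -3.32 (SE 0.53, adjusted p = 0.127) for Col11a1, -3.86 (SE 0.83, adjusted p = 0.285) for Col25a1 and -2.59 (SE 0.62, adjusted p = 0.39) for Col9a1. DESeq2 called these 3 genes among 130 of all genes (0.713%), and limma-voom called 0 of all genes. Without the libraries labelled WT replicate 2, Col11a1 passed in edgeR's test at -3.87 (SE 0.45, adjusted p = 0.0333, 1.2e-20 to 0.633 over the alternatives).

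Genes whose products fold, process, bind or cut collagen were described by the same fit. None of the 77 genes tested in these 6 lists passed in either genotype comparison. Of all genes, 0.159% fell and 0.0932% rose in luminal cells, and 0.00548% fell and none rose in basal cells. None of 77 is near these shares, so it is no result about these lists. Plod1, a lysyl hydroxylase, came nearest in luminal cells at -1.17 (SE 0.22, adjusted p = 0.0508 by edgeR's test). Between populations, 13 of 18 folding and modifying enzymes were lower in luminal cells in MMTVRANK and 11 in WT, and 1 (P4ha2, a prolyl hydroxylase) was higher in WT. P3h1, a prolyl 3-hydroxylase of the endoplasmic reticulum, was at -5.01 (SE 0.33) in MMTVRANK and -4.17 (SE 0.31) in WT. Of 17 genes of secretion, processing and cross-linking, 7 were lower and 3 higher in each genotype. The 3 were Adamts3, a procollagen N-proteinase, at 2.18 and 1.94, Creb3l1, a transcription factor of secretory cells, at 2.19 and 1.55, and Mia2, a cargo receptor of the endoplasmic reticulum, at 0.74 and 0.88 in MMTVRANK and WT. Loxl3, a cross-linking lysyl oxidase, was at -6.25 (SE 0.39) in MMTVRANK and -5.68 (SE 0.38) in WT.

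Of 16 basement membrane partners, 14 were lower in luminal cells in MMTVRANK and 15 in WT, and Lama5, a laminin alpha chain, was higher in each, at 1.11 and 1.57. Lama1, another laminin alpha chain, was at -6.32 (SE 0.49) in MMTVRANK and -6.87 (SE 0.51) in WT. Of 11 fibril-associated proteins, 6 were lower in MMTVRANK and 11 in WT, with Sparc, a collagen-binding glycoprotein, at -7.14 (SE 0.64) and -7.83 (SE 0.66). Of 11 collagen receptors, 7 were lower in each genotype, with Itga1, the alpha chain of an integrin that binds type IV collagen, at -6.08 (SE 0.57) in MMTVRANK and -8.94 (SE 0.71) in WT. Of 4 tested collagen-degrading proteases, 1 was lower in MMTVRANK and 3 in WT, with Mmp2, a gelatinase, at -7.04 (SE 0.87) and -7.56 (SE 0.91). Against 17% of all genes lower and 16.1% higher in MMTVRANK, and 20% and 18% in WT, the 3 of 17 higher genes of secretion and cross-linking were near the background. The summed level of the fibril-associated genes was 256, 499 and 1605 CPM in MMTVRANK luminal libraries, against 116, 199 and 320 in WT luminal libraries. MMTVRANK luminal replicate 3, which stood apart in its markers, was the highest, and the part of other cells in its value was not tested. Without the libraries labelled WT replicate 2, the numbers lower in WT were 12 of 18 enzymes, 6 of 17 genes of secretion and cross-linking, 13 of 16 basement membrane partners, 10 of 11 fibril-associated genes, 6 of 11 receptors and 1 of 5 proteases. In that fit 28% of all genes passed in either direction in WT. P4ha2, Creb3l1, Mia2 and Lama5 were named after their values were seen.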

How the data were processed

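RNA was sequenced from 12 libraries made with a SMARTer Pico kit, per the labels' protocols. The authors deposited whole-number counts per gene, made with featureCounts 1.5.2 on GENCODE M17 (GRCm38.p6), without strand, per the file headers; STAR 2.6.1b and Subread 1.5 are named in the submitters' processing notes. Groups follow the library titles. The replicate number was tested as a pairing: deviations from the group means of same-numbered libraries correlated over 0.1 (Pearson's r over 9330 genes) in every pair between the luminal groups (0.56, 0.115 and 0.418), between the MMTVRANK populations (0.258, 0.151 and 0.114) and between the WT populations (0.291, 0.168 and 0.38), but not between the basal groups (0.405, -0.0467 and 0.16).

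Genes were filtered with filterByExpr (minimum count 10, which is 0.728 CPM in at least 3 libraries), scaled by TMM and tested on the counts with edgeR 4.0.16 (R 4.3.3) in 1 quasi-likelihood fit over the 4 groups, adjusted by Benjamini-Hochberg over 18236 genes for each of 5 comparisons. The common biological coefficient of variation was 0.45. Levels are TMM-scaled CPM, divided by deposited gene length where genes are compared. The fit was tested on simulated data with large known changes in a single group, set in genes above a minimum level. That simulation held no population difference and does not cover smaller changes, genes of few counts or libraries that stand apart. No 2 of the 66 pairs of libraries agreed within sampling noise (lowest chi-square per degree of freedom 25.5). RLE scaling, DESeq2 1.42.0, limma-voom (limma 3.58.1), no filter, fits on the compared groups alone, the replicate block, the cell subtype field and omitted libraries were alternatives. For Col11a1, Col25a1, Col9a1 and Col6a3 the lowest adjusted p over the alternatives came from the fit without a filter. The highest came from the cell subtype field, which goes against the markers. Such ranges are thus no spread over equally suitable fits. Counting intervals and floors cover counting error only.

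The collagen genes and the companion and marker lists were chosen with earlier results of these data known. Values in every library are given for genes past the threshold in a genotype comparison, the 8 most abundant per length, the 6 largest and 6 smallest changes between WT populations among those past the threshold, and the 6 smallest p-values in each genotype comparison. Of each companion list up to 4 genes with the smallest p-values could be named.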

Additional observations from a re-analysis of the deposited data

How the results depend on the processing

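Numbers of collagen genes past the threshold depended on the processing as follows. For MMTVRANK against WT in luminal cells (2 genes, with 46 of all genes in the reported fit), DESeq2 called 4 (800 of all genes). The fit without a low-count filter called 15 of 44, of which 10 rose and 5 fell (1353 of all genes, 3.58%). Limma-voom, the fit on the 2 groups alone and the cell subtype field called 0 (29, 7 and 0 of all genes). The joint omission of WT basal replicate 1 and MMTVRANK luminal replicate 3 also called 0 (13 of all genes). For MMTVRANK against WT in basal cells (0 genes), the fit without a filter called 7, of which 2 rose and 5 fell (349 of all genes). For the difference of the genotype effects (0 genes), DESeq2 called 3 (130 of all genes). The fit without a filter called 14, of which 10 were positive and 4 negative (776 of all genes). The fit without the libraries labelled WT replicate 2 called 1 (3 of all genes). The cell subtype field goes against the markers of the libraries labelled WT replicate 2 and so mixes the WT populations. With it, luminal against basal cells gave 0 genes in MMTVRANK and 0 in WT (3 and 0 of all genes), and the WT value of Col23a1 turned to 0.41. Leaving out 1 library at a time gave 0 to 2 genes in luminal cells (3 to 93 of all genes) and 0 in basal cells (0 to 8 of all genes). It gave 24 to 32 for luminal against basal cells in MMTVRANK (23.6% to 32.8% of all genes) and 27 to 35 in WT (29.5% to 35.8%). For the difference of effects it gave 0 to 1 (1 without WT luminal replicate 3), with 0 to 7 of all genes. The cause of these changes was not tested.

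With the replicate block the counts were 2 in luminal cells and 0 in basal cells (103 and 1 of all genes). They were 25 for luminal against basal cells in MMTVRANK and 35 in WT (35.6% and 40.2% of all genes), and 0 for the difference of effects (0 of all genes). The calls that moved are given with the results, and no other call changed. The joint omission was chosen after seeing the data. With 3 libraries a group and a common biological coefficient of variation of 0.45, small changes and genes of few counts were not resolved.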
